A study of Mus musculus with 16 samples.

Results

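The 10 genes described here are the 3 Asxl paralogs (Asxl1, Asxl2 and Asxl3), the deubiquitinase gene Bap1 and 6 genes for further subunits of the Bap1 complex (Foxk1, Foxk2, Hcfc1, Ogt, Mbd5 and Mbd6). They were taken by name, as the paralogs and subunits of 1 complex, and make up 10 of the 55291 gene symbols in the count table. RNA was sequenced from lineage-negative, cKit-positive, Sca-1-positive bone marrow cells (LSK cells, the fraction that holds blood stem and multipotent progenitor cells), with 1 library for each of 16 C57BL/6 mice. There were 4 mice in each of 4 genotypes. WT mice were wild type, Asxl1Tg mice carried the Asxl1Y588XTg transgene, Srsf2P95H mice carried 1 mutant Srsf2 allele (Srsf2P95H/+), and double-mutant (DM) mice carried both. The design text counts 3 DM mice, but 4 are labelled and each has a column, so 4 entered every test. The sources used here did not state the promoter of the transgene, whether it holds mouse or human sequence, how the Srsf2 allele was made active, or the age and sex of the mice. The transgene label (Y588X) names a stop in place of a tyrosine of Asxl1, which gives a protein cut short, and the Srsf2 label a proline-to-histidine change in a splicing factor. The questions posed by this design are whether either mutation, or both together, altered the RNA level of the complex that Asxl1 belongs to.

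Bap1 is a ubiquitin hydrolase of the UCH family that works only when bound to an Asxl protein. Together they form the Polycomb repressive deubiquitinase (PR-DUB), which takes ubiquitin off lysine 119 of histone H2A, the mark that Polycomb repressive complex 1 (PRC1) puts on. The forkhead proteins Foxk1 and Foxk2 bring the enzyme to DNA, the host cell factor Hcfc1 and the O-GlcNAc transferase Ogt are stable partners of Bap1, and Mbd5 and Mbd6 bind the core through their methyl-CpG-binding-like domains. Truncating mutations of ASXL1 are frequent in human myeloid neoplasms, often together with SRSF2 mutations.

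The mouse sequence around the codon of the label Y588X is shown because that is where the label places the stop. On GRCm38 this codon lies at chr2:153399290-153399292 on the plus strand, in exon 13 of 13, the last exon of Asxl1, and is part of the coding sequence. The capitals below mark the reference tyrosine codon within chr2:153399260-153399322.
Asxl1 stop site: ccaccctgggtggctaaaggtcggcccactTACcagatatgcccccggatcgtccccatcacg
Of the 1514 coding codons of the transcript used, 587 (38.8%) precede this codon and 927 lie from the stop on. RNA of the transgene is counted under Asxl1 only as far as its reads map to the mouse gene, and a count summed over the gene does not separate it from RNA of the mouse's own Asxl1.

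The paralogs are shown next, because a member's count can only be read as its own if reads of its paralog do not map to it. For each pair, the most similar ungapped stretch of 100 coding bases, the length of 1 read, is given with the differing bases in capitals. The Asxl1 window (exons 2 to 4, chr2:153352251-153357145, plus strand) and the Asxl2 window (exons 2 to 4, chr12:3442536-3451737, plus strand) shared 82 of 100 bases.
Asxl1: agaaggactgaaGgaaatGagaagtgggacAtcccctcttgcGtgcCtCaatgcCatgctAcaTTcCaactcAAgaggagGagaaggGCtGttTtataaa
Asxl2: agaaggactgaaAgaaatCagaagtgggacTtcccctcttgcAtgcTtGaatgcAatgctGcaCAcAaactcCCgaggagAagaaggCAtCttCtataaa
The Foxk1 window (exons 4 and 5, chr5:142450335-142451485, plus strand) and the Foxk2 window (exons 4 and 5, chr11:121290838-121296075, plus strand) shared 85 of 100 bases.
Foxk1: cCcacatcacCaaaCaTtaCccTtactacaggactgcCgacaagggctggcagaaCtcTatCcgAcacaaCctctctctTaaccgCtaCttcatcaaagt
Foxk2: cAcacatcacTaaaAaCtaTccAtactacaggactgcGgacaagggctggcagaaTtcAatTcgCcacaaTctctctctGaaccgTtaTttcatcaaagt
The Mbd5 window (exons 2 and 3, chr2:49250156-49251256, plus strand) and the Mbd6 window (exons 4 and 5, chr10:127286943-127287153, minus strand) shared 71 of 100 bases.
Mbd5: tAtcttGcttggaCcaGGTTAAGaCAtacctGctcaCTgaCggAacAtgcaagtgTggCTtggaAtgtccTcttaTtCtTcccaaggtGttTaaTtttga
Mbd6: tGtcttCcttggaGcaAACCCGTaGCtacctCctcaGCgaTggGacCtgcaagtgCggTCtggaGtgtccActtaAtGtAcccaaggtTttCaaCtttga
The closest windows of Asxl3 shared 79 of 100 bases with Asxl1 and 82 with Asxl2. Even the closest stretch of each pair therefore held 15 or more differences in a read's length. Of all 50-base words in the annotated transcripts of Bap1, Foxk2, Hcfc1, Ogt and Mbd6, 0% occurred in transcripts of another gene. The share was 0.146% for Foxk1, 0.309% for Asxl3, 0.350% for Mbd5 and 1.22% for Asxl2. In Asxl1 it was 150 of 7484 words. The shared words of Asxl1 lay in 2500004C02Rik, an RNA of the opposite strand that overlaps 197 of the 7444 exon bases of Asxl1. Asxl2 overlaps 1110002L01Rik over 155 exon bases and Mbd5 overlaps Orc4 over 136, both on opposite strands. The strand setting of the counting was not given in the sources used here, so reads in these stretches cannot be assigned to one gene or the other.

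Each library held between 83.0 and 127.6 megacounts. All 10 of the LSK marker genes listed were present in every group, with a summed level of 2318 to 3745 CPM (TMM-scaled counts per megacount of a library) in each library. This sum was lower in Asxl1Tg mice (median 2680, 2318 to 2904 CPM) than in WT (median 3261, 2868 to 3745 CPM), with medians of 2990 in Srsf2P95H and 3102 in DM mice. The sum of 6 T-cell and NK-cell genes had a median of 87.3 CPM in WT mice and 103 CPM with the transgene alone, against 121 CPM in Srsf2P95H mice and 130.1 CPM in DM mice. Most of the latter sum was Nkg7, at 66.3 to 161 CPM over the libraries. Il2rb reached at most 6.26 CPM, and Cd3e, Cd3g, Cd3d and Trbc2 at most 1.01 CPM. The part of these differences between genotypes in the results below was not tested. Some libraries also held markers of mature cells. The summed level of 7 B-cell genes was 1229 CPM in WT 4, 1278 CPM in Asxl1Tg 3 and 940 CPM in DM 1, with group medians from 225 to 276 CPM. The summed level of 6 eosinophil genes was 1546 CPM in WT 4, against a WT median of 294 CPM. Xist, which is transcribed from the inactive X chromosome of females, stood at 1566 to 2312 CPM in 5 libraries (WT 1, Asxl1Tg 3, Srsf2P95H 2 and 3, DM 1) and at 0.384 to 2.11 CPM in the other 11. For Asxl2, Asxl3, Bap1, Ogt and Mbd5, differences from WT are also given without WT 4. In bulk RNA, fewer cells of a type and less RNA per cell cannot be told apart.

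All members except Asxl3 were clearly detected in these cells, at differing levels. Per kilobase of exon, Hcfc1 had the highest level, at 62.2 ± 4.15 CPM per kilobase (SD, n = 16 libraries), above 97.3% of the genes with a length. Asxl1 came next at 29.8 ± 1.40 CPM per kilobase, then Bap1 at 25.1 ± 1.56. The ranges of Hcfc1, Asxl1 and Bap1 over the libraries did not overlap. Ogt (22.3 ± 5.04), Foxk2 (20.2 ± 3.10), Mbd6 (19.2 ± 2.56) and Foxk1 (19.1 ± 0.873 CPM per kilobase) overlapped one another, and Bap1 exceeded Ogt in 13 of 16 libraries. Asxl2 was lower at 7.94 ± 0.733 and Mbd5 at 2.20 ± 0.290 CPM per kilobase, each apart from its neighbours in all 16 libraries. Asxl2 lay above 73.0% of the genes with a length and Mbd5 above 53.0%, near the middle. Among the Asxl genes the order per kilobase was thus Asxl1, Asxl2, Asxl3 in every library. With the longest transcript as the length, Ogt moved to the second place at 33.4 CPM per kilobase, Asxl1 stood at 31.8 and Bap1 at 30.5, and the order of the other members was the same.

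**Figure D1:**
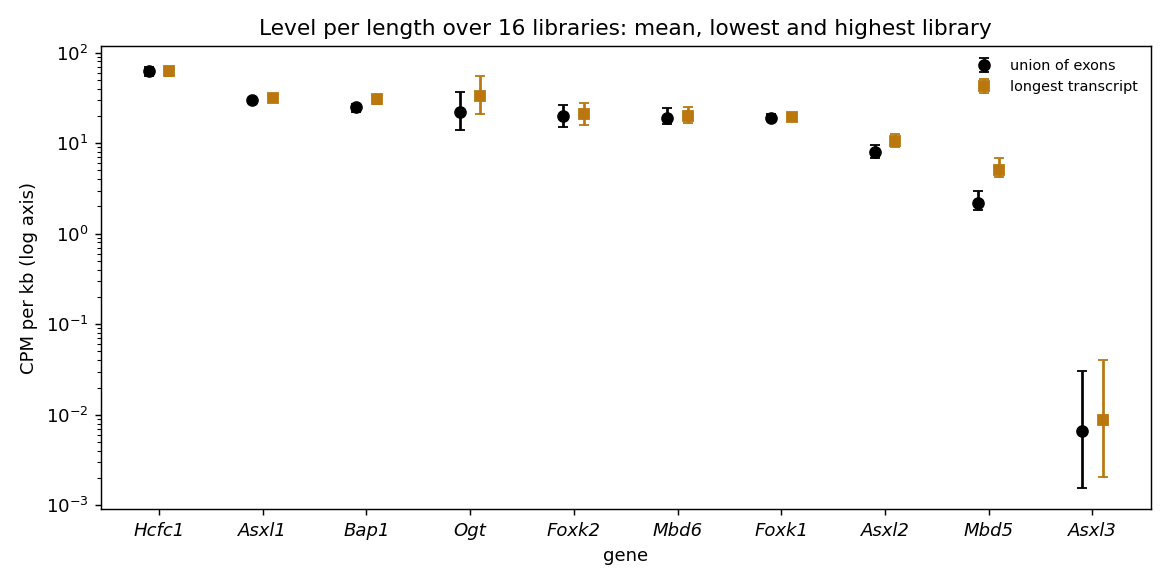
Level of each member in CPM per kilobase (log axis), as the mean over 16 libraries with bars from the lowest to the highest library, by the union of exons (black) and by the longest transcript (brown). By the union of exons, Hcfc1 (mean 62.2) is highest, the 4 genes from Ogt to Foxk1 overlap, and Asxl3 lies far below the others at a mean of 0.00658.

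None of the 10 members passed the test in any comparison (edgeR quasi-likelihood test over 22749 genes, Benjamini-Hochberg adjusted p under 0.05). The background was as follows. In Asxl1Tg versus WT, 0 of 10 members and 1.88% of all genes tested were called. In Srsf2P95H versus WT, 0 of 10 members and 0.506% of genes were called. In DM versus WT, 0 of 10 members and 9.39% of genes were called. The 2 comparisons of DM with single mutants called 0 members and 1.08% of genes (against Asxl1Tg) or 0.246% (against Srsf2P95H). The interaction, which asks whether the transgene's effect differed with the Srsf2 mutation, called 0 members and 0% of genes. With mice pooled 8 against 8, carriers of the transgene versus all others called 0 members and 1.85% of genes. Carriers of Srsf2P95H versus all others called 0 members and 10.6% of genes. Since 10 members is a small number, a count of 0 beside shares of this size says little about the members as a group. These comparisons share libraries and are not independent of one another.

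At an unadjusted p under 0.05 the members counted 2 in Asxl1Tg versus WT (background 21.5% of genes), 2 in Srsf2P95H versus WT (25.3%) and 3 in DM versus WT (30.6%). The members counted 0 in DM versus Asxl1Tg (17.8%), 0 in DM versus Srsf2P95H (6.48%) and 2 in the interaction (11.7%). They counted 1 among transgene carriers (15.4%) and 1 among Srsf2P95H carriers (29.1%). DESeq2 called 1 member in Asxl1Tg versus WT (Mbd5; background 8.23% of genes) and 1 in DM versus WT (Asxl2; 17.2%). It called 0 in Srsf2P95H versus WT (11.4%), DM versus Asxl1Tg (5.13%), DM versus Srsf2P95H (1.03%), the interaction (0.229%), transgene carriers (4.78%) and Srsf2P95H carriers (16.8%). The median log2 fold change of the members was 0.02 in Asxl1Tg versus WT, -0.05 in Srsf2P95H versus WT and -0.01 in DM versus WT. The medians over all genes tested were -0.04, -0.05 and -0.02.

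**Figure D2:**
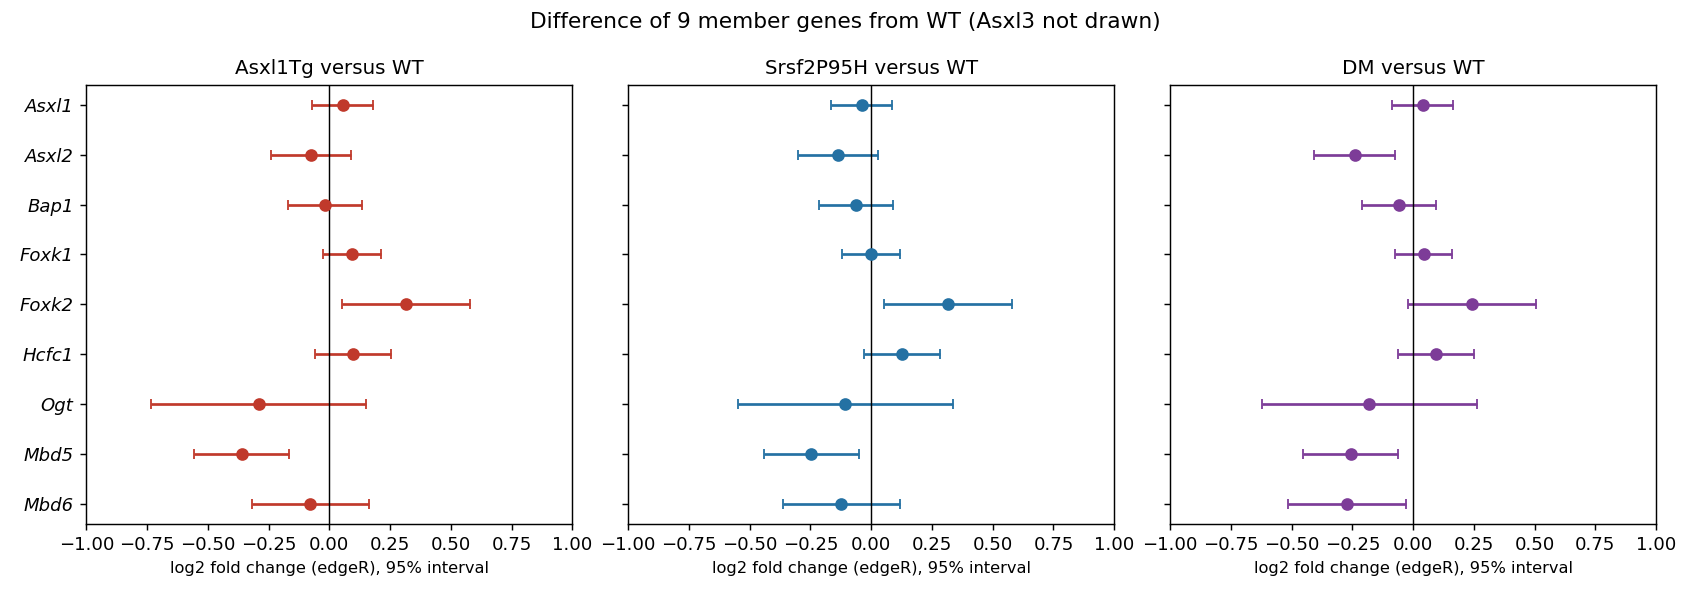
Log2 fold change of 9 members (Asxl3 is not drawn) against WT, with 95% intervals, in the 3 genotypes named above the panels, from the edgeR fit over all genes. The points lie between -0.36 (Mbd5 in Asxl1Tg) and 0.32 (Foxk2), no member passes the adjusted threshold, and Ogt has the widest interval in each panel.

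Asxl1 (chromosome 2, 153345829 to 153404007 on the plus strand) encodes the activator of Bap1 of which the transgene adds a truncated form. It measured 225, 227, 213 and 213 CPM in WT mice 1 to 4 and 218, 227, 233 and 235 CPM in Asxl1Tg mice. It measured 209.6, 206, 234 and 206 CPM in Srsf2P95H mice and 218, 219, 229.8 and 236 CPM in DM mice. The ranges of all 4 genotypes overlapped, and the highest library was 1.15 times the lowest. The log2 difference in Asxl1Tg versus WT was 0.05 (SE 0.06, adjusted p = 0.636), and its 95% interval ran from a fold of 0.952 to 1.13. Over all 8 transgene carriers against the 8 other mice it was 0.07 (SE 0.04, adjusted p = 0.472, interval -0.02 to 0.15). A gain in RNA counted under Asxl1 was thus not detectable in transgene carriers, and an increase above 1.13-fold lies outside the interval of Asxl1Tg versus WT. Since transgene reads may not map to the mouse gene, this level does not measure the transgene. Across the 16 libraries the coefficient of variation of Asxl1 was 4.69%. Its biological coefficient of variation in the edgeR fit was 0.0808, with 1.44% of genes smaller.

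Asxl2 (chromosome 12, 3426857 to 3506852, plus strand) encodes the paralog that can take the place of Asxl1 in the complex. It measured 123, 137, 134 and 151 CPM in WT and 109.6, 115, 115 and 123 CPM in DM mice. The DM values lay below the WT values, with the highest DM mouse (123.1) just under the lowest WT mouse (123.2 CPM). Asxl1Tg mice had 137, 133, 125 and 124 CPM, and all DM values lay below these too. Srsf2P95H mice had 133, 111, 116 and 137 CPM and overlapped every other genotype. The log2 difference in DM versus WT was -0.24 (SE 0.08, adjusted p = 0.0593), a fold of 0.846 with an interval from 0.755 to 0.949. It was -0.19 without WT 4 (adjusted p = 0.167). DESeq2 called it (adjusted p = 0.0314), and it passed in 6 of 25 alternative settings. Among all Srsf2P95H carriers the difference was -0.15 (SE 0.06, adjusted p = 0.0840). With 3 of the 10 members lower in DM than WT without overlap, the background for such lower genes was 9.35% of all genes tested. In DM versus Asxl1Tg, 1 of 10 members was lower without overlap (Asxl2, log2 difference -0.17, SE 0.08, adjusted p = 0.282), against 4.16% of genes.

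A ratio of 2 genes within a library does not depend on how libraries are scaled. Asxl2 counts were 0.547, 0.606, 0.630 and 0.709 of Asxl1 counts in WT mice. In DM mice the ratios were 0.503, 0.523, 0.501 and 0.521, all below the WT mice and within a narrow range. They were 0.527 to 0.630 in Asxl1Tg and 0.497 to 0.663 in Srsf2P95H mice, so the DM values lay below Asxl1Tg but within the Srsf2P95H range.

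Asxl3 (chromosome 18), the paralog best known from the nervous system, was close to absent. Its raw counts were 5, 2, 8 and 16 in WT mice and 4, 6, 44 and 6 in Asxl1Tg mice, then 12, 5, 8 and 5 in Srsf2P95H mice and 10, 12, 13 and 11 in DM mice. At 0.00658 CPM per kilobase it lay above 0.0543% of genes with a length. The 44 counts of Asxl1Tg 3 set the sign of its difference from WT: the log2 value was 1.11 (SE 0.70, adjusted p = 0.383) with that library and -0.40 without it. It was 1.68 without WT 4 (adjusted p = 0.298). That library also had the high B-cell marker sum, and the part of other cells in its Asxl3 counts was not tested.

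Bap1 (chromosome 14, 31251450 to 31259944, plus strand) encodes the catalytic subunit. It measured 124, 128, 126 and 104 CPM in WT mice and 121, 113, 119 and 123 CPM in Asxl1Tg mice. Srsf2P95H mice had 120.1, 118, 117 and 106 CPM and DM mice 114, 123, 106 and 121 CPM. All 4 ranges overlapped, and WT 4 was the lowest of the 16. No log2 difference of Bap1 between 2 genotypes was larger than 0.07 in either direction with TMM factors and all libraries. Asxl1Tg versus WT was -0.02 (SE 0.07), Srsf2P95H versus WT -0.06 (SE 0.07) and DM versus WT -0.06 (SE 0.07). The interval for DM versus WT ran from a fold of 0.864 to 1.07 (adjusted p = 0.625). Without WT 4 the 3 differences were -0.08, -0.13 and -0.12 (adjusted p = 0.561, 0.315 and 0.279). With library totals alone as the scale, Srsf2P95H versus WT was -0.17 and DM versus WT -0.15, neither called. On that scale Bap1 was called among Srsf2P95H carriers (-0.14, adjusted p = 0.0293), against -0.05 with TMM factors (adjusted p = 0.537). Bap1 counts per Asxl1 count were 0.548 ± 0.0442 in WT mice and 0.522 ± 0.0258 with the transgene alone, against 0.541 ± 0.0385 in Srsf2P95H mice and 0.514 ± 0.0415 in DM mice (SD, n = 4 each).

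**Figure D3:**
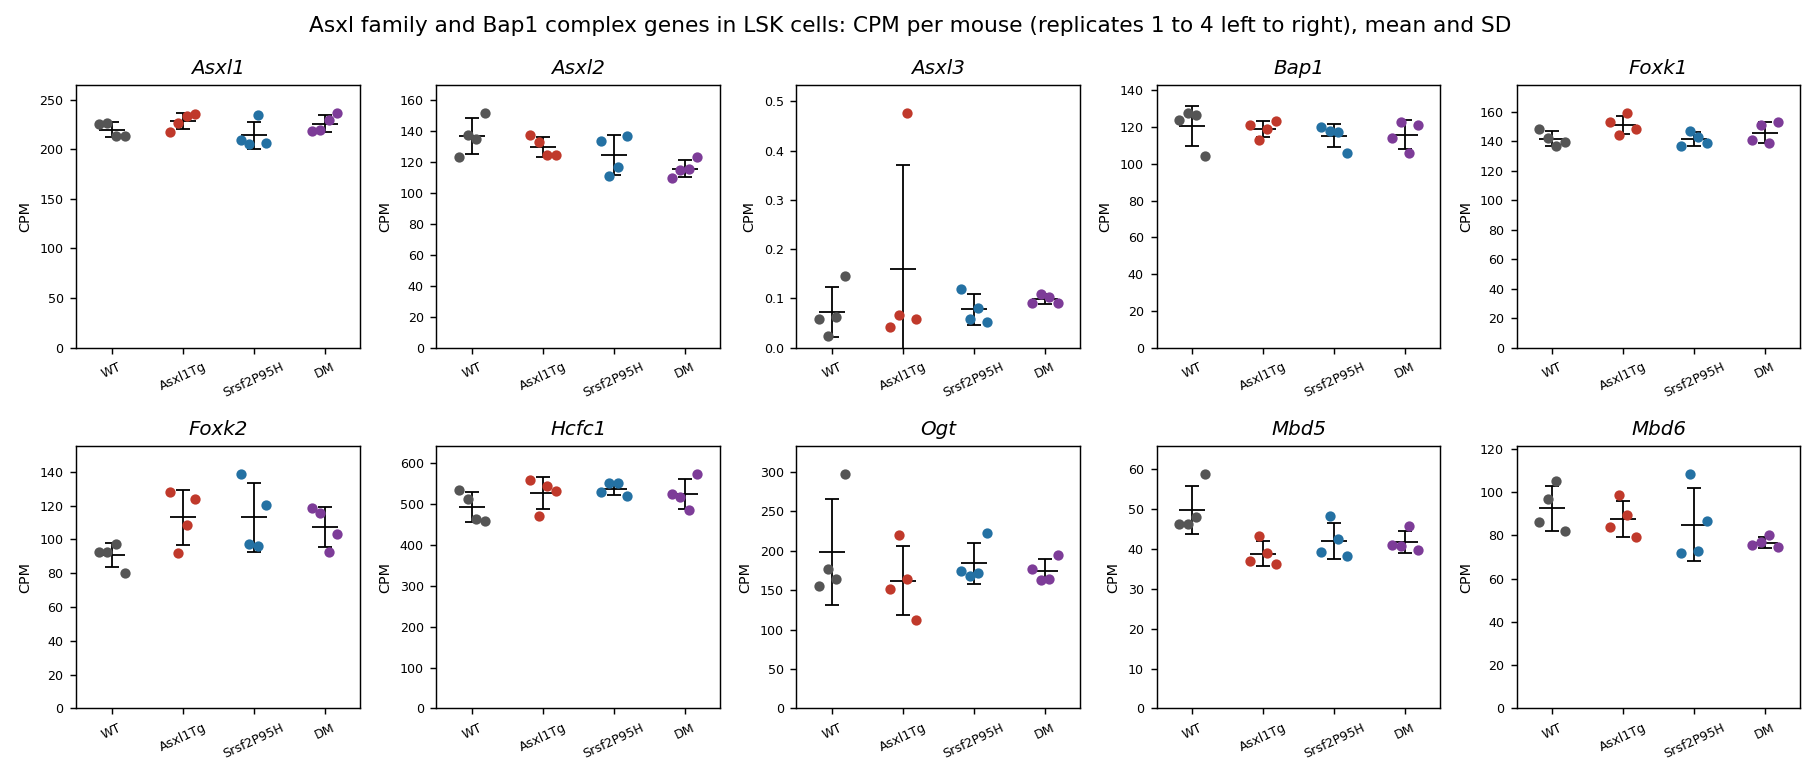
CPM of each member in each of the 16 libraries, with the mean and SD of each genotype (n = 4 mice). Asxl1 overlaps between all genotypes. The means of Asxl2 and Mbd6 are lowest in the DM mice, and Ogt has 1 high WT library at 297 CPM. The lower SD bar of Asxl3 in Asxl1Tg is clipped at 0.

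Foxk1 (chromosome 5, 142401497 to 142462011, plus strand) encodes a forkhead factor that recruits Bap1 to chromatin. WT mice ranged from 137 to 149 CPM, Asxl1Tg mice from 145 to 159, Srsf2P95H mice from 137 to 147 and DM mice from 139 to 153 CPM. Its coefficient of variation over the 16 libraries was 4.56%. The largest of its log2 differences from WT was 0.09 in Asxl1Tg (SE 0.06, adjusted p = 0.352). Foxk2 (chromosome 11, 121259990 to 121309896, plus strand), its paralog with the same kind of domain, varied more. It measured 92.8, 92.6, 97.3 and 80.4 CPM in WT and 128, 91.7, 108 and 124 CPM in Asxl1Tg mice. It measured 139, 97.1, 96.0 and 120.4 CPM in Srsf2P95H and 118, 116, 92.7 and 103 CPM in DM mice. Every mutant group held 1 or more mice at the WT level and 2 or more above the highest WT mouse. The log2 difference from WT was 0.32 in Asxl1Tg (SE 0.12, adjusted p = 0.158), 0.32 in Srsf2P95H (SE 0.12, adjusted p = 0.129) and 0.24 in DM (SE 0.12, adjusted p = 0.194). These 3 comparisons share the 4 WT libraries. In Asxl1Tg versus WT, Foxk2 passed in 1 of 25 alternative settings, without Asxl1Tg 2, the lowest mouse of that group (0.40, adjusted p = 0.0470). The interaction for Foxk2 was -0.39 (SE 0.18, unadjusted p = 0.0419, adjusted p = 0.406), so the transgene's difference was not shown to depend on the Srsf2 allele.

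Hcfc1 (chromosome X, 73942792 to 73966357, minus strand) encodes a transcriptional coregulator that Bap1 deubiquitinates and binds. WT mice ranged from 459 to 533 CPM, Asxl1Tg mice from 469.9 to 559.6, Srsf2P95H mice from 519 to 551 and DM mice from 484 to 574 CPM. All ranges overlapped, and its log2 differences from WT were 0.10 (SE 0.07, adjusted p = 0.479) in Asxl1Tg, 0.13 (SE 0.07, adjusted p = 0.296) in Srsf2P95H and 0.09 (SE 0.07, adjusted p = 0.417) in DM. The sign in DM flipped to -0.0034 when libraries were scaled by their totals alone. WT 4 was the lowest of the 16 libraries for Hcfc1. Over 25 alternative settings, left-out libraries among them, the difference ran from 0.06 to 0.15 in Asxl1Tg, 0.02 to 0.17 in Srsf2P95H and -0.0034 to 0.14 in DM.

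Ogt (chromosome X, 101640060 to 101684351, plus strand) encodes the enzyme that adds O-GlcNAc to proteins, Hcfc1 among them. WT mice had 155, 176, 164 and 297 CPM and Asxl1Tg mice 152, 219, 165 and 112 CPM. Srsf2P95H mice had 174, 168, 171 and 223 CPM and DM mice 177, 163, 164 and 195 CPM. WT 4 held the highest value of all, 2.64 times the lowest. The difference in Asxl1Tg versus WT was -0.29 (SE 0.21, adjusted p = 0.445) with WT 4 and -0.03 without it. In DM versus WT it was -0.18 (SE 0.21, adjusted p = 0.586) with WT 4 and 0.09 without it. Ogt and Hcfc1 are both X-linked, so their levels were set beside Xist. Ogt had a median of 168 CPM in the 5 Xist-high and 174 CPM in the 11 other libraries, and Hcfc1 of 543 and 517 CPM, with the Xist-high values inside the range of the other libraries for both genes.

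Mbd5 (chromosome 2, 48949508 to 49325405, plus strand) encodes a PR-DUB subunit with a methyl-CpG-binding-like domain. It measured 46.3, 46.2, 48.1 and 58.8 CPM in WT and 37.1, 43.2, 39.0 and 36.1 CPM in Asxl1Tg mice. The 4 Asxl1Tg mice lay below the 4 WT mice, and this was the member nearest to the threshold. Its log2 difference in Asxl1Tg versus WT was -0.36 (SE 0.09, adjusted p = 0.0553), a fold of 0.779 with an interval from 0.680 to 0.893. Without WT 4, the highest library and the one with the high B-cell and eosinophil marker sums, it was -0.27 (adjusted p = 0.162). The part of those cells in the result was not tested. DESeq2 called it (adjusted p = 0.0145), and it passed in 4 of 25 alternative settings, among them those without WT 1 (0.0391) and without Asxl1Tg 2 (0.0200). Mbd5 was 1 of 10 members lower in Asxl1Tg without overlap, against 5.28% of genes. Srsf2P95H mice had 39.4, 48.2, 42.4 and 38.2 CPM, overlapping WT, and DM mice 40.9, 40.7, 45.7 and 39.6 CPM, all below WT. The DM versus WT difference was -0.26 (SE 0.09, adjusted p = 0.0813), and -0.17 without WT 4 (adjusted p = 0.257). The interaction for Mbd5 was 0.35 (SE 0.13, unadjusted p = 0.0167, adjusted p = 0.378).

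Mbd6 (chromosome 10, 127281956 to 127289018, minus strand), the paralog of Mbd5 in the same complex, measured 86.3, 97.0, 105 and 82.1 CPM in WT and 75.4, 77.0, 80.0 and 74.5 CPM in DM mice. The DM mice lay below the WT mice and close to one another. Asxl1Tg mice had 79.2 to 98.5 CPM and Srsf2P95H mice 71.9 to 108 CPM, both overlapping WT. The log2 difference in DM versus WT was -0.27 (SE 0.11, adjusted p = 0.122), with an interval from a fold of 0.701 to 0.979. It passed in 1 of 25 alternative settings, with both WT 4, the lowest WT mouse, and Srsf2P95H 2 left out (-0.32, adjusted p = 0.0401). Among all Srsf2P95H carriers the difference was -0.16 (SE 0.08, adjusted p = 0.203). There it passed in 2 of 24 alternatives, without Srsf2P95H 2 (-0.23, adjusted p = 0.0326) or without both libraries (-0.25, adjusted p = 0.0192). Srsf2P95H 2 held the highest Mbd6 value of all 16 libraries (108 CPM). The Mbd5 to Mbd6 count ratio was 0.436 to 0.456 in Asxl1Tg mice, below the WT mice at 0.458 to 0.717, while DM mice lay at 0.529 to 0.571. The upper end in WT was WT 4 alone. The other WT mice reached 0.536, and 2 of the 4 DM mice (0.543 and 0.571) lay above them.

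Some members varied together from mouse to mouse. Over the 16 libraries, Foxk2 and Mbd5 had the lowest correlation of the 36 pairs of the 9 expressed members, with a Pearson r of log2 CPM of -0.84. It was -0.78 for deviations from the genotype means and -0.80 without WT 4. The 2 genes lie on different chromosomes. Foxk1 and Hcfc1 had the highest value, 0.62, and 0.79 for deviations from the genotype means. Asxl1 and Bap1, the 2 core subunits, stood at 0.22. All values share the same libraries and scaling and are given as descriptions.

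**Figure D4:**
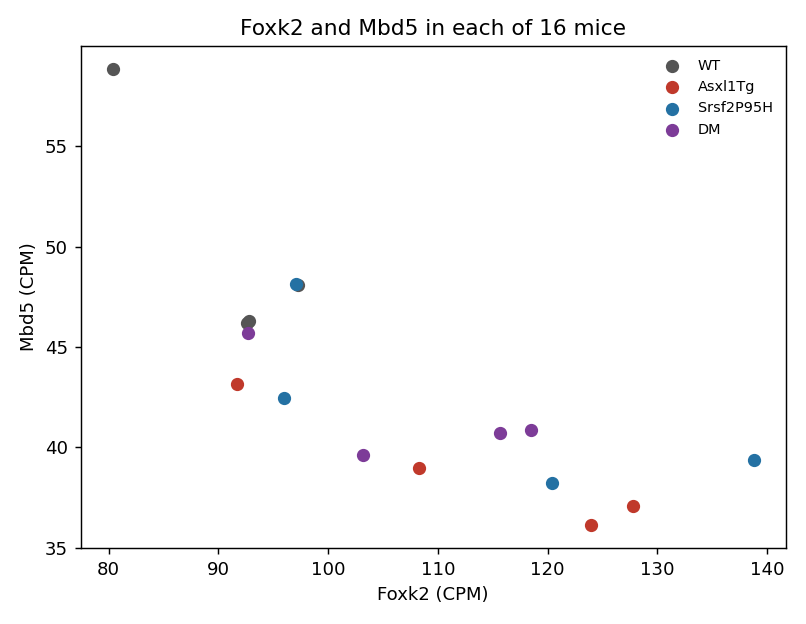
Mbd5 (vertical) against Foxk2 (horizontal), both in CPM, 1 point per library, coloured by genotype. Libraries with more Foxk2 tend to have less Mbd5 (r = -0.84), and WT 4 (Mbd5 at 58.8, Foxk2 at 80.4 CPM) lies at one end.

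The genes whose level was most like that of a member were sought among 9214 genes with a mean of at least 10 CPM, by Pearson r of log2 CPM over the same 16 libraries. For the Asxl genes these were Tab1 (r = 0.80) and Fbxo6 (0.79) for Asxl1, and B4galt3 (0.89) and Zfp276 (0.87) for Asxl2. For Bap1 they were Aamp (0.86) and Sde2 (0.82). Foxk1 was closest to Cotl1 (0.83) and Ralb (0.80), and Foxk2 to Cacybp (0.97) and Gfer (0.97). Hcfc1 was closest to Babam1 (0.96) and Samm50 (0.94), and Ogt to Polk (0.92) and Emsy (0.88). Mbd5 was closest to Elk4 (0.94) and Ssh2 (0.94), and Mbd6 to Ccdc9 (0.93) and Tmsb10 (0.90). The highest r found for Asxl1 was thus below that found for Foxk2 or Hcfc1, and the small spread of Asxl1 over libraries stands beside it. By Spearman rank correlation (rho), Emsy stood at 0.70 (place 26 for Ogt) and Sde2 at 0.72 (place 20 for Bap1). Tmsb10 stood at 0.76 (place 33 for Mbd6), and Gfer at 0.91 but place 105 for Foxk2. Of the genes named, only Ccdc9 held place 1 by rho, and only Cotl1 (0.84) and Ralb (0.87) had a rho above r. They were picked as the highest of 9214 genes by r, and the part of single outlying libraries was not tested.

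Of 12 listed partners of the Bap1 complex, 1 was called higher in Asxl1Tg versus WT, 1 lower in DM versus WT, and 1 higher and 2 lower among Srsf2P95H carriers. Over all genes tested the shares called in these comparisons were 1.88%, 9.39% and 10.6%, so 1 of 12 in DM versus WT is near the background. The list's median log2 fold changes were -0.03, 0.03 and 0.05, against -0.04, -0.02 and -0.02 over all genes. Oga, which removes the O-GlcNAc that Ogt adds, measured 195, 194, 206 and 177 CPM in WT and 145, 133, 171 and 122 CPM in DM mice. The 2 groups did not overlap, and Oga fell by 0.43 on the log2 scale (SE 0.10, adjusted p = 0.0151). The call was lost without WT 3 (adjusted p = 0.0503), without DM 2 (0.0585) or without DM 4 (0.0554). In Srsf2P95H versus WT the Oga difference was -0.44 (SE 0.10, adjusted p = 0.0533 with edgeR and 0.00364 with DESeq2). In DM versus Srsf2P95H it was 0.0025 (SE 0.10). Among all Srsf2P95H carriers Oga fell by 0.31 (SE 0.07, adjusted p = 0.0126), in all 24 alternatives. Oga counts per Ogt count were 0.821, 0.818, 1.04 and 0.628 in DM and 1.26, 1.10, 1.26 and 0.597 in WT mice. The ranges overlapped through WT 4 alone, and the other 3 WT mice lay above all DM mice.

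Ube2o, the ubiquitin-conjugating enzyme that modifies Bap1, was at 48.1, 43.5, 49.1 and 42.1 CPM in WT and 61.3, 52.0, 54.9 and 68.3 CPM in Asxl1Tg mice, without overlap. It rose by 0.37 (SE 0.09, adjusted p = 0.0432). The DM mice, at 51.8 to 56.2 CPM, also lay above all WT mice. Against WT the difference was 0.25 in DM (SE 0.09, adjusted p = 0.0771) and 0.25 in Srsf2P95H mice (SE 0.09, adjusted p = 0.103). In DM versus Srsf2P95H it was 0.0022 (SE 0.09). The call in Asxl1Tg versus WT was lost in 10 of 16 runs with 1 library left out (adjusted p from 0.0513 to 0.161). Yy1, a DNA-binding partner of Bap1, rose by 0.14 (SE 0.04, adjusted p = 0.0372) among Srsf2P95H carriers, and 8 of 16 such runs lost the call (0.0568 to 0.0989). With library totals alone as the scale, Yy1 had a difference of 0.05. Kmt2d, a histone H3 lysine 4 methyltransferase, fell by 0.18 (SE 0.06, adjusted p = 0.0489) among the same carriers. It kept the call in 2 of 16 such runs, those without WT 1 or Srsf2P95H 2, and lost it in the others (0.0528 to 0.0942). DESeq2 also called Kmt2d in DM versus WT (-0.24, adjusted p = 0.0235, background 17.2% of genes). In DM versus Asxl1Tg it did so too (-0.29, adjusted p = 0.0159, background 5.13%).

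**Figure D5:**
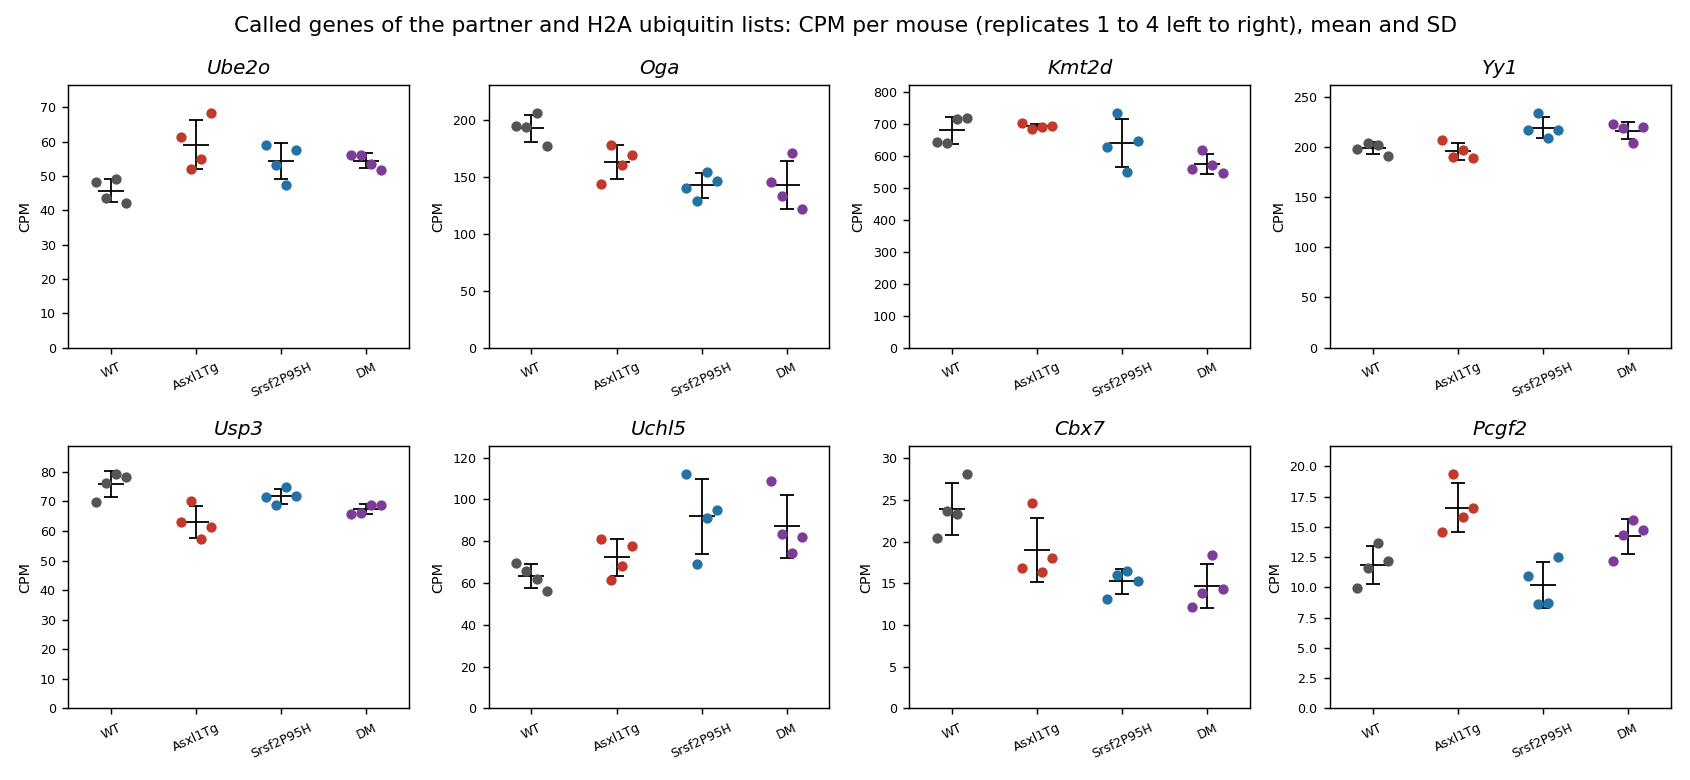
CPM of the called genes of the related lists in each library, with the mean and SD of each genotype (n = 4 mice). Oga and Cbx7 are lower in DM than in WT mice without overlap, and Uchl5 is higher. Oga and Cbx7 are also lower in Srsf2P95H than in WT mice without overlap.

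Of 12 other H2A deubiquitinases and UCH hydrolases, 1 fell in Asxl1Tg versus WT, 1 rose in DM versus WT and the same gene rose among Srsf2P95H carriers. Over all genes tested the shares called in these comparisons were 1.88%, 9.39% and 10.6%, so 1 of 12 is near the background in the last 2. Uchl5, the UCH hydrolase of the proteasome, measured 69.7, 65.7, 61.9 and 56.3 CPM in WT and 109, 83.3, 74.3 and 82.1 CPM in DM mice. It rose by 0.46 in DM versus WT (SE 0.14, adjusted p = 0.0475), a call that 11 of 16 runs with 1 library left out did not keep (0.0532 to 0.165). In Srsf2P95H versus WT the Uchl5 difference was 0.53 (SE 0.14, adjusted p = 0.0580 with edgeR and 0.0105 with DESeq2). In DM versus Srsf2P95H it was -0.08 (SE 0.14). Among all Srsf2P95H carriers it rose by 0.40 (SE 0.10, adjusted p = 0.0203), and the call was lost without Srsf2P95H 1 (0.0531) or without DM 1 (0.0546). Usp3, a deubiquitinase of H2A and H2B, fell by 0.27 in Asxl1Tg versus WT (SE 0.07, adjusted p = 0.0449). Only 3 of 16 such runs kept that call, those without WT 1, Asxl1Tg 2 or Srsf2P95H 2, and the others gave 0.0540 to 0.153. Beyond these calls and Uchl5, DESeq2 called Uchl3 in Srsf2P95H versus WT (adjusted p = 0.0336, background 11.4% of genes). It also called Brcc3 among Srsf2P95H carriers (0.0488, 16.8%) and Usp3 among transgene carriers (0.00901, 4.78%).

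Of 21 genes of PRC1, the ligase that opposes PR-DUB, 1 was lower in DM versus WT, 1 higher among transgene carriers and 1 lower among Srsf2P95H carriers. The shares over all genes were 9.39%, 1.85% and 10.6%, so the list was not called more often than other genes in the first and the last. Cbx7, a chromodomain subunit of canonical PRC1, measured 20.5, 23.7, 23.4 and 28.2 CPM in WT and 12.1, 13.9, 18.4 and 14.3 CPM in DM mice. It fell by 0.71 (SE 0.15, adjusted p = 0.0116) in DM versus WT, and by 0.51 (SE 0.10, adjusted p = 0.00963) among Srsf2P95H carriers. Both calls held in every alternative tried, 25 and 24 in number. In Srsf2P95H versus WT the Cbx7 difference was -0.65 (SE 0.15, adjusted p = 0.0546 with edgeR and 0.00211 with DESeq2). In DM versus Srsf2P95H it was -0.06 (SE 0.15). Pcgf2, a subunit that pairs with the ligase, was at 14.6, 19.4, 15.8 and 16.6 CPM in Asxl1Tg and 12.2, 14.3, 15.6 and 14.8 CPM in DM mice. WT mice had 9.93 to 13.7 CPM and Srsf2P95H mice 8.65 to 12.5 CPM. Pcgf2 rose by 0.48 among transgene carriers (SE 0.10, adjusted p = 0.0138), in all 24 alternatives. DESeq2 also called Pcgf2 in Asxl1Tg versus WT (adjusted p = 0.0107, background 8.23% of genes). It further called Pcgf6 in Srsf2P95H versus WT (0.0478, 11.4%) and Ring1 among Srsf2P95H carriers (0.0486, 16.8%).

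Of 9 other genes with a methyl-CpG-binding domain, 0 were called in any comparison by edgeR. An unadjusted p under 0.05 was found for 2 in Asxl1Tg versus WT (21.5% of all genes), 2 in Srsf2P95H versus WT (25.3%), 3 in DM versus WT (30.6%), 2 in the interaction (11.7%) and 1 among transgene carriers (15.4%). It was found for 0 in the other 3 comparisons. DESeq2 called Baz2b in Asxl1Tg versus WT (adjusted p = 0.0479) and in DM versus WT (0.0212), and none of the others. The smallest p belonged to Baz2b, a bromodomain gene, in DM versus WT (log2 difference -0.40 and adjusted p = 0.0515 with edgeR).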

How the data were processed

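The authors deposited 1 table of raw counts per gene. Per the submitters' processing notes, the tools used were FastQC, Trimmomatic 0.38, STAR 2.7.0e and HTSeq 0.11.2 with build mm10; their settings were not given in the sources used here. Per the labels, paired-end reads of 100 bases came from RNA of individual mice. Samples were grouped by the genotype in their labels. The Asxl1Tg columns carry a short name that was matched to those samples because every other name was taken. Counts were scaled by TMM factors and 22749 genes were tested in 1 model of 4 genotypes over all 16 libraries with edgeR 4.0.16 (filterByExpr with a minimum count of 10, robust quasi-likelihood test, Benjamini-Hochberg adjustment, threshold 0.05) in R 4.3.3. CPM are TMM-scaled. Intervals are 95% intervals of the fit. DESeq2 1.42.0, other scalings and filters, left-out libraries, a replicate block and an Xist covariate were alternatives. In counts simulated for Asxl1Tg versus WT over 22749 genes, 21 of 50 genes changed 1.5-fold and 37 of 50 changed 2-fold were recovered. These genes were drawn at random and not matched to the members, so the rates need not hold for the members. In that comparison the SE of the 9 members other than Asxl3 ran from 0.056 to 0.207, against a median of 0.235 over all genes. Lengths and sequences are those of GENCODE M21 (build GRCm38), which held 53292 of the 55291 symbols. The members and the lists were chosen with earlier results of these data known. All 10 members were named, and from each list every called gene or, with none called, the 2 with the smallest p, of which 1 is not reported here.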

Additional observations from a re-analysis of the deposited data

Results flagged for a closer look

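In 6 of 40 groups of 4 mice (10 members in 4 genotypes), the highest or lowest library stood further from the others than Dixon's 95% critical value of 0.829 for 4 samples allows. Chance flags about 1 in 20 groups. WT 4 held 3 of these values: Ogt at 297 CPM, Mbd5 at 58.8 CPM and Bap1 at 104 CPM. Its B-cell and eosinophil marker sums were also the highest among the WT mice, and their part in these values was not tested. Ogt in Srsf2P95H 4 stood at 223 CPM, Asxl1 in Srsf2P95H 3 at 234 CPM, and Asxl3 in Asxl1Tg 3 at 0.476 CPM, which is 44 counts.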

How the results depend on the processing

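Of 1957 log2 fold changes of members recomputed under other settings, 1924 stayed on their side of the threshold without a marked change of sign. The 1924 include values under 1 SE that changed sign with a shift of at most 1 SE. A further 17 newly passed the threshold. Another 11 were under 1 SE and changed sign with a shift above 1 SE, and 5 of at least 1 SE reversed. The reversed values were Asxl3 without Asxl1Tg 3 (-0.40 in Asxl1Tg versus WT, 0.82 in DM versus Asxl1Tg and -0.0342 among transgene carriers, with left-out ranges of -0.40 to 1.68, -1.03 to 0.82 and -0.0342 to 1.01) and Hcfc1 with library totals alone (-0.0034 in DM versus WT, -0.0267 among Srsf2P95H carriers). That scaling moved the median of all genes by -0.11 in Srsf2P95H versus WT, -0.10 in DM versus WT and -0.09 among Srsf2P95H carriers, and lowered the share of higher calls from 52.2% to 18.4%, from 49.6% to 27.0% and from 61.7% to 22.8%; the share went from 59.6% to 68.8% in Asxl1Tg versus WT and from 78.8% to 37.2% in DM versus Asxl1Tg. Members called numbered 1 in Asxl1Tg versus WT with DESeq2, and 1 in DM versus WT with library totals alone, DESeq2, a stricter filter, an Xist covariate, or both WT 4 and Srsf2P95H 2 left out. Among Srsf2P95H carriers they numbered 2 with library totals alone, 1 with the stricter filter and 1 with those 2 libraries left out. These were Mbd5 in the first, Asxl2 in the second (Mbd6 with both libraries left out), and Asxl2 with Bap1, Asxl2 and Mbd6 in the third. Leaving out 1 library gave 0 to 2 members in Asxl1Tg versus WT, 0 to 1 in DM versus WT, 0 to 1 among Srsf2P95H carriers and 0 elsewhere. Genes called with DESeq2 were 1872, 2602, 3914, 1168, 234, 52, 1087 and 3813 in the order Asxl1Tg versus WT, Srsf2P95H versus WT, DM versus WT, DM versus Asxl1Tg, DM versus Srsf2P95H, interaction, transgene carriers and Srsf2P95H carriers, against 428, 115, 2135, 245, 56, 0, 420 and 2420 with edgeR. In that order, leaving out 1 library gave 121 to 2330, 0 to 1638, 586 to 2660, 10 to 384, 20 to 63, 0 to 7, 312 to 658 and 914 to 3015. Fitting the compared groups alone gave 73, 2 and 17 genes in Asxl1Tg versus WT, Srsf2P95H versus WT and DM versus Asxl1Tg. Without both WT 4 and Srsf2P95H 2, these 3 gave 212, 298 and 655 genes, and DM versus Srsf2P95H 26. Library totals alone gave 217 genes in Srsf2P95H versus WT and 86 in DM versus Asxl1Tg, the stricter filter 202 and the Xist covariate 50 in Srsf2P95H versus WT, and DESeq2's size factors in edgeR 135 in DM versus Asxl1Tg. Without a filter, genes called were 101 in DM versus Asxl1Tg, 1 in the interaction and 1443 among Srsf2P95H carriers. Deviations of same-numbered libraries correlated at -0.600 to 0.644, and 4 of 16 libraries were closest to their own number. No clear pairing of mice by replicate number was thus seen, but this check cannot exclude a partial pairing. A replicate block gave 648 genes in Asxl1Tg versus WT (428 without it) and 952 in Srsf2P95H versus WT (115 without it). It called 0 members in every comparison. Asxl3 was not tested under the stricter filter or when the compared groups were fitted alone. DESeq2 gave Asxl3 no adjusted p in most comparisons, and these values were counted as not passing. Asxl3, at 2 to 44 counts a library, is also limited by counting error.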
